A study of Mus musculus with 6 samples.

Results

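MHC class I presentation genes encode the machinery by which nucleated cells show peptides from their own proteins on the surface. The 10 genes examined were the heavy chains H2-K1, H2-D1 and H2-T23, the invariant light chain B2m, the peptide transporter subunits Tap1 and Tap2, the loading factor Tapbp, the immunoproteasome subunits Psmb8 and Psmb9, and the transactivator Nlrc5. They were found as all non-control probes whose transcript accession belongs to 1 of these symbols, which gave 15 probes for the 10 genes, out of 23462 named genes and 56605 probes on the array. Microglia, the resident macrophages of the brain, were sorted from 3-month-old mice as cells low in CD45 and positive for CD11b and Cx3cr1, and hybridised in 1 colour to 6 arrays. The 3 control samples came from Bhlhe41 dTomato-Cre/+ mice (B41 HET), and the 3 deficient samples from Bhlhe41 dTomato-Cre/dTomato-Cre mice (B41 KO). This allele is a reporter and driver inserted at the Bhlhe41 locus ahead of its start codon, in every cell of the mouse, and no Bhlhe41 protein, a transcriptional repressor, is made from it. All samples carry at least 1 copy, and no wildtype sample was on these arrays. Mice were on the C57BL/6 background, and the methods describe each sample as a pool of several animals, whereas the labels count 3 mice per genotype. The 3 values per genotype, with their SDs and SEs, therefore describe samples, which may be pools or single mice. The comparison asks which class I presentation genes differ in microglia that lack Bhlhe41.

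In class I presentation, the proteasome cuts cytosolic proteins into peptides, and the immunosubunits Psmb8 and Psmb9 replace constitutive subunits and change which peptides are made. Tap1 and Tap2 together carry peptides into the endoplasmic reticulum, where Tapbp, also called tapasin, holds an empty heavy chain and B2m beside the transporter until a peptide fits. The loaded complex travels to the surface for CD8+ T cells and NK cells. Interferons and Nlrc5, which acts at the promoters of these genes, raise their transcription, and microglia are known to increase class I in inflammation and ageing.

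Of the 15 class I presentation probes, 0 were called between B41 HET and B41 KO microglia by limma, where a call needed an adjusted p of at most 0.05 over all probes and a log2 fold change of at least 0.5 in size. Over all 56601 probes tested, 2867 (5.07%) were called, 3.34% as lower in B41 KO microglia and 1.72% as higher. By the brightest probe of each gene 0 of the 10 genes were called, beside 5.45% of all named genes. At an unadjusted p under 0.05, 3 of the 15 class I probes passed, beside 23% of all probes. This count depended on the setting, with 7 of the 15 under normexp background correction, beside 13526 of 56601 probes in all, and 7 with trend and robust variance, beside 14025. The log2 fold changes of the class I probes lay between -0.36, for the brighter Tapbp probe, and 0.23, for the dimmer Tap1 probe, and 10 were below 0 and 5 above. Over the brightest probes of the 10 genes the median was -0.13, beside 0.01 over all named genes, and it was -0.026 with the mean over all probes of each gene in place of the brightest. With a 75th percentile shift in place of quantile normalization, the class I median was -0.11 and that of all named genes 0.095. The 95% interval of the difference lay within 0.5 of 0 for 11 of the 15 probes, beside 43.5% of all probes. It reached past 0.5 in size for H2-T23, the brighter Tap1 probe, the dimmer Tap2 probe and the brighter Tapbp probe. For these 4 probes a difference of the size that a call needs lies within the error.

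**Figure D1:**
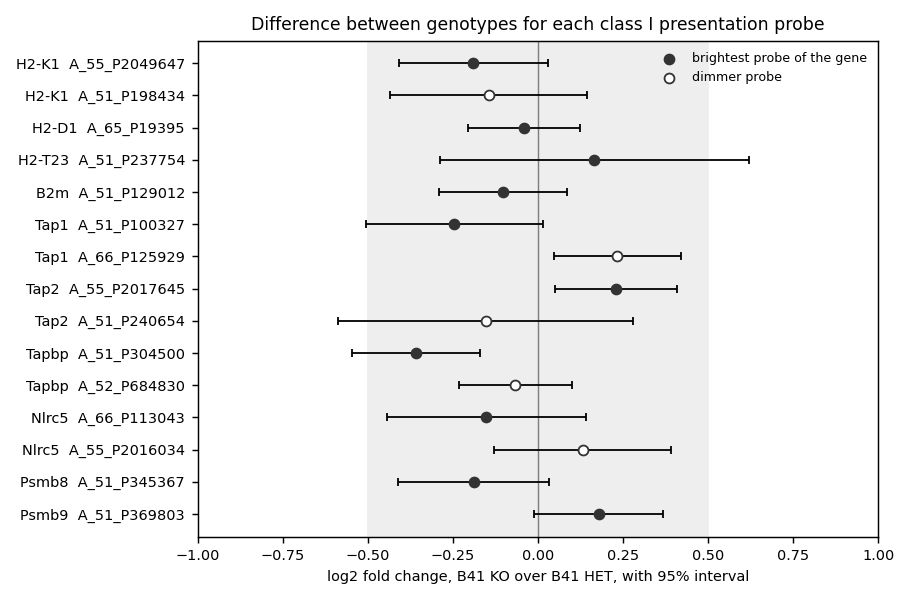
Log2 fold change of B41 KO over B41 HET microglia for each of the 15 class I presentation probes, with 95% intervals from limma over 3 against 3 samples. Filled circles are the brightest probe of a gene, open circles the dimmer one, and the grey band marks 0.5 on either side of 0, which the intervals of 11 probes do not leave.

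All 15 probes were well above background on all 6 arrays, and none of their spots carried an outlier flag. The mean log2 signals in B41 HET samples ran from 5.27 for the dimmer Nlrc5 probe to 14.21 for H2-D1, but signals of different probes depend on the probe, so brightness served only to choose which probes and genes to name and is no order of transcript levels. The standard deviation within a genotype had a median of 0.08 over the class I probes and reached 0.33 for H2-T23 in B41 HET samples. In 7 of the 15 probes the genotypes did not overlap, 4 with B41 KO lower and 3 with B41 KO higher, beside 29.7% of all probes with 6 values. An exact permutation test of 3 samples against 3 cannot go below p = 0.1, so the model across all probes carries the test.

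The samples were checked before these values were read. On each array 70.1% to 75.5% of probes exceeded background clearly, and 0 spots were saturated. The Bhlhe41 probes were not lower in the samples labelled B41 KO (log2 fold changes of 0.38 and 0.33, adjusted p = 0.330 and 0.203 in limma). The inserted cassette ends in a polyA signal ahead of the start codon, and where the probes lie relative to it was not examined here, so the genotype labels were not checked by a transcript. All 10 microglia markers were well above background on every array, with mean log2 signals over the list of 13.19 to 13.29 in B41 HET and 13.12 to 13.20 in B41 KO samples, and 1 of them, Fcrls, was called lower. Markers of other cells moved with genotype. Of 12 neutrophil and monocyte markers 9 were called lower, all 12 were well above background on every array, and the mean over the list was 9.62 to 9.76 in B41 HET and 7.77 to 7.91 in B41 KO samples. Of 10 border macrophage markers 6 were called lower, with means of 5.97 to 6.13 and 4.74 to 4.94. Among 10 endothelial markers 2 were called lower, Pecam1 and Ly6c1, and Cdh5, Tek, Flt1 and Tie1 were well above background on no array. Dendritic and B cell markers had 1 gene called lower each, Cd209a of 8 and Cd79a of 6, and of 7 T and NK cell markers 0 were called by limma, with 2 at an unadjusted p under 0.05. The sort on CD45, CD11b and Cx3cr1 is meant to leave most such cells out. They carry class I molecules too, and their part in the class I signals was not tested. In bulk samples, fewer cells of a type and less RNA per cell cannot be told apart.

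**Figure D2:**
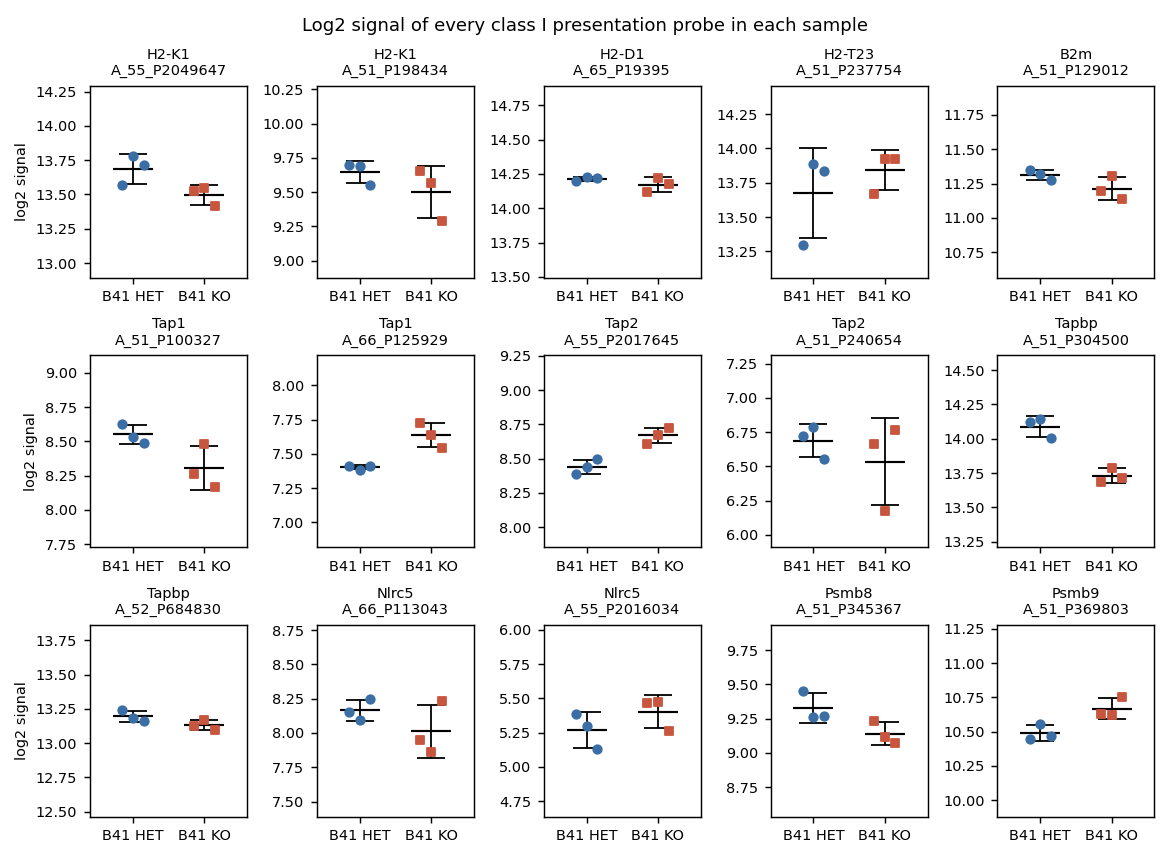
Log2 signal of each class I presentation probe in the 3 B41 HET (blue circles) and 3 B41 KO samples (red squares), with the mean and standard deviation in black. All panels span the same width on axes of their own, and the genotypes separate in 7 of the 15 panels, among them the brighter Tapbp probe and both directions of Tap1.

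The heavy chains H2-K1 and H2-D1 are the classical class I molecules of C57BL/6 mice, which present peptides to CD8+ T cells. The brighter H2-K1 probe gave log2 signals of 13.57, 13.78 and 13.71 in B41 HET samples and 13.53, 13.55 and 13.42 in B41 KO samples. All 3 B41 KO samples lay below the lowest B41 HET sample, by a margin smaller than the spread within either genotype. Its log2 fold change was -0.19 (standard error of the difference, SE, 0.09, 95% interval -0.41 to 0.03, adjusted p = 0.275). The dimmer H2-K1 probe ran from 9.56 to 9.70 in B41 HET and from 9.29 to 9.65 in B41 KO samples, which overlap, with a log2 difference of -0.15 (adjusted p = 0.536). The H2-D1 probe gave 14.20, 14.23 and 14.22 in B41 HET samples and 14.12, 14.22 and 14.18 in B41 KO samples. Of all class I probes this one differed least between genotypes in the reported fit, though not under every alternative. Its log2 fold change was -0.04 (SE 0.07, 95% interval -0.21 to 0.12, adjusted p = 0.770).

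H2-T23 encodes Qa-1, a nonclassical heavy chain that shows leader peptides of other class I molecules to the CD94/NKG2 receptors of NK cells. It gave 13.30, 13.89 and 13.84 in B41 HET samples and 13.67, 13.93 and 13.92 in B41 KO samples. B41 HET replicate 1 lay apart from the other two of its genotype and below all B41 KO samples. The log2 fold change of 0.17 (SE 0.18, 95% interval -0.29 to 0.62, adjusted p = 0.659) became -0.02 without that sample. B2m, the light chain that every class I molecule needs, gave 11.35, 11.32 and 11.28 in B41 HET and 11.19, 11.30 and 11.14 in B41 KO samples, with a log2 fold change of -0.10 (SE 0.08, 95% interval -0.29 to 0.09, adjusted p = 0.498). B41 KO replicate 2 lay among the B41 HET samples. Class I heavy chain transcripts are near-identical over long stretches, and probe sequences were not used here, so how much a heavy chain probe also reads of its relatives is unknown.

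Sequences upstream of the heavy chains and B2m are given because the known control elements of class I transcription lie there and because the E-box CACGTG, the motif assigned to Bhlhe41, can be searched for in them. Windows from 250 bases before to 50 after the start, from RefSeq on GRCm38.p6, were matched for 8 of the 10 genes, not for Tap2 and Nlrc5. They were searched on both strands for the E-box (CACGTG), a core of the interferon-stimulated response element (GAAA, any 2 bases, GAAA), a core of an NF-kB site (GGGANTNCC) and the core of the X2 box (TGACGC), part of the module through which Nlrc5 acts. The matches in these windows did not overlap each other. Sites farther than 250 bases upstream were not searched. The paper reports Bhlhe41 binding at some E-boxes that lie farther upstream than this in the promoters of other genes. The E-box was in 0 of the 8 genes' windows and in 7.15% of all 32851 windows. The interferon element was in those of B2m and H2-T23 (3.44% of all windows), and the NF-kB and X2 cores were both in those of H2-K1 and H2-D1 (3.95% and 7.40% of all windows). Matches are exact letters and not measured sites, so near matches were not counted. Both H2-K1 and H2-D1 hold tttcacttc between the NF-kB and X2 cores, the interferon letters on the other strand less a single T. A window without a match is therefore not shown to lack the element. In the 250 bases before each start below, capitals mark the exact matches, that of H2-T23 being on the other strand.
H2-K1, chr17:34000348-34000597, minus strand: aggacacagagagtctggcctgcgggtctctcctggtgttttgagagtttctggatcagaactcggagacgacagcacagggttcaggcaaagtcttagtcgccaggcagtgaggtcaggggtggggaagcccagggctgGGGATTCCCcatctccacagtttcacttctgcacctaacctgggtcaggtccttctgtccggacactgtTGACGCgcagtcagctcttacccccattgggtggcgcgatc
H2-D1, chr17:35262844-35263093, plus strand: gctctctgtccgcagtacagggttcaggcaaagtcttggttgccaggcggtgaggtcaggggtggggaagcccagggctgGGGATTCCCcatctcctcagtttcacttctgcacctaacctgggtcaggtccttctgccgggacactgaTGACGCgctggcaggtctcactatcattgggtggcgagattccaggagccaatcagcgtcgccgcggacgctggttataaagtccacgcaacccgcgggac
B2m, chr2:122147437-122147686, plus strand: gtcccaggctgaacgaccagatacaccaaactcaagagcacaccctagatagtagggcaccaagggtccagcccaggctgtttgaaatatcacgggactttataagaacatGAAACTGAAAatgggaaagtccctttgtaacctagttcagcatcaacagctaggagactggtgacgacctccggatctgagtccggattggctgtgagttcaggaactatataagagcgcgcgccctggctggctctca
H2-T23, chr17:36032702-36032951, minus strand: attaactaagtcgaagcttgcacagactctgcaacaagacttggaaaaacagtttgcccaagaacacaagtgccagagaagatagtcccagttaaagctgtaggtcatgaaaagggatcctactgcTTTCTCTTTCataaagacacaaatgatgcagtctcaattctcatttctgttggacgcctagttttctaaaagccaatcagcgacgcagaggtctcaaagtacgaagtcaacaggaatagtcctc
The H2-K1 and H2-D1 stretches matched at 170 of 190 aligned bases (89.5%), and in both the NF-kB core began 69 bases before the X2 core. The 2 genes with these shared letters had log2 fold changes of -0.19 and -0.04 on their brightest probes, neither of which was called.

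Among the transport and loading genes, the brighter Tapbp probe had the smallest adjusted p of all class I probes. It gave log2 signals of 14.12, 14.14 and 14.00 in B41 HET and 13.68, 13.79 and 13.71 in B41 KO samples. Every B41 KO sample lay below every B41 HET sample, with a gap wider than the spread within a genotype. The log2 fold change of -0.36 (SE 0.08, 95% interval -0.55 to -0.17, adjusted p = 0.0521 in limma) passed neither part of the threshold. Over 15 alternative settings it stayed between -0.41 and -0.33 and the adjusted p ranged from 0.00231 to 0.241, so the threshold on fold was not reached under any of them. The dimmer Tapbp probe, designed on another Tapbp transcript, ran from 13.16 to 13.24 in B41 HET and from 13.09 to 13.17 in B41 KO samples, a log2 fold change of -0.07 (SE 0.07, adjusted p = 0.623). In each array the brighter probe was set against the dimmer one, and this difference was 0.29 lower in B41 KO samples without overlap (exact permutation test, two-sided, p = 0.1, adjusted over the 5 genes with 2 probes 0.167). The 2 probes therefore gave unequal differences, beyond the spread of the samples but not past a test of this size.

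The 2 probes of Tap1 and those of Tap2 also gave unequal differences, with log2 fold changes of opposite sign in the reported fit. The brighter Tap1 probe gave 8.63, 8.53 and 8.49 in B41 HET and 8.26, 8.48 and 8.17 in B41 KO samples, a log2 fold change of -0.25 (SE 0.11, adjusted p = 0.240). The dimmer Tap1 probe, on the same transcript, gave 7.41, 7.38 and 7.41 in B41 HET and 7.72, 7.64 and 7.54 in B41 KO samples, a log2 fold change of 0.23 (SE 0.07, adjusted p = 0.138). Neither probe overlapped between genotypes, yet they pointed in opposite directions, and the difference between them was 0.48 lower in B41 KO samples (exact permutation test, two-sided, p = 0.1, adjusted 0.167). The brighter Tap2 probe gave 8.39, 8.44 and 8.49 in B41 HET and 8.61, 8.67 and 8.72 in B41 KO samples, a log2 fold change of 0.23 (SE 0.07, adjusted p = 0.131). The dimmer Tap2 probe ran from 6.55 to 6.79 in B41 HET and from 6.17 to 6.77 in B41 KO samples, with a log2 difference of -0.15 (adjusted p = 0.669) that became 0.03 without B41 KO replicate 2. For Tap1 the sign thus depended on the probe, while the dimmer Tap2 probe gave no settled sign. The difference between the Tap2 probes was 0.38 higher in B41 KO samples, also without overlap (exact permutation test, two-sided, p = 0.1, adjusted 0.167).

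Nlrc5, which raises transcription of most other genes examined here, gave 8.16, 8.09 and 8.25 in B41 HET and 7.95, 7.86 and 8.23 in B41 KO samples on its brighter probe. B41 KO replicate 3 lay within the B41 HET range and the other two below it. The log2 fold change was -0.15 (SE 0.12, 95% interval -0.44 to 0.14, adjusted p = 0.518), and that of the dimmer probe 0.13 (SE 0.11, adjusted p = 0.532), with both probes overlapping between genotypes. The 5 genes with 2 probes were thus split, since 3 of them, Tap1, Tap2 and Nlrc5, had log2 fold changes of opposite sign, and H2-K1 and Tapbp had both below 0.

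The immunosubunits Psmb8 and Psmb9 each had 1 probe. Psmb8 gave 9.45, 9.26 and 9.27 in B41 HET and 9.23, 9.12 and 9.07 in B41 KO samples, with a log2 fold change of -0.19 (SE 0.09, 95% interval -0.41 to 0.03, adjusted p = 0.285). Psmb9 gave 10.45, 10.56 and 10.47 in B41 HET and 10.63, 10.62 and 10.76 in B41 KO samples, with a log2 fold change of 0.18 (SE 0.08, 95% interval -0.01 to 0.37, adjusted p = 0.241). Psmb8 was lower and Psmb9 higher in every B41 KO sample than in any B41 HET sample, and neither was called. The constitutive subunits that they replace had values of similar size, -0.20 for Psmb5 (adjusted p = 0.150), which Psmb8 replaces, and 0.19 for Psmb6 (adjusted p = 0.301), which Psmb9 replaces. Of 7 measured genes in the list of the third immunosubunit, activators, constitutive subunits and the assembly factor Pomp, 0 were called by limma, 2 had an unadjusted p under 0.05, and 1, Psmb7 (log2 fold change -0.42, adjusted p = 0.0339), passed the threshold on adjusted p alone. Psme3, a nuclear proteasome activator and the brightest of that list, had a log2 fold change of -0.10 (adjusted p = 0.471).

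Psmb9 and Tap1 start on opposite strands and share the short stretch between their starts, so this sequence is given beside their values of 0.18 and -0.25. It held none of the motifs searched, and so has no capitals.
Psmb9 to Tap1, chr17:34187331-34187555, plus strand: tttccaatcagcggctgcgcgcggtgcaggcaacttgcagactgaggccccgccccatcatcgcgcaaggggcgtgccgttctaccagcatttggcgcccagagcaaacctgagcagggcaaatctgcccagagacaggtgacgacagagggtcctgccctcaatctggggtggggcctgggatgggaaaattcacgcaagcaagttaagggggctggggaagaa
In the order of measured protein-coding genes in the RefSeq table, Psmb9, Tap1, Psmb8 and Tap2 follow one another inside the class II region, with H2-DMb1 on one side and H2-Ob on the other. Over the 19 measured genes from H2-K1 to H2-Eb1, 0 of 5 class I presentation genes were called, 4 of 8 class II genes were called lower and 1 higher, and 0 of 6 other genes were called, by the brightest probe. Over all 23462 named genes 4.01% were called lower and 1.44% higher.

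**Figure D3:**
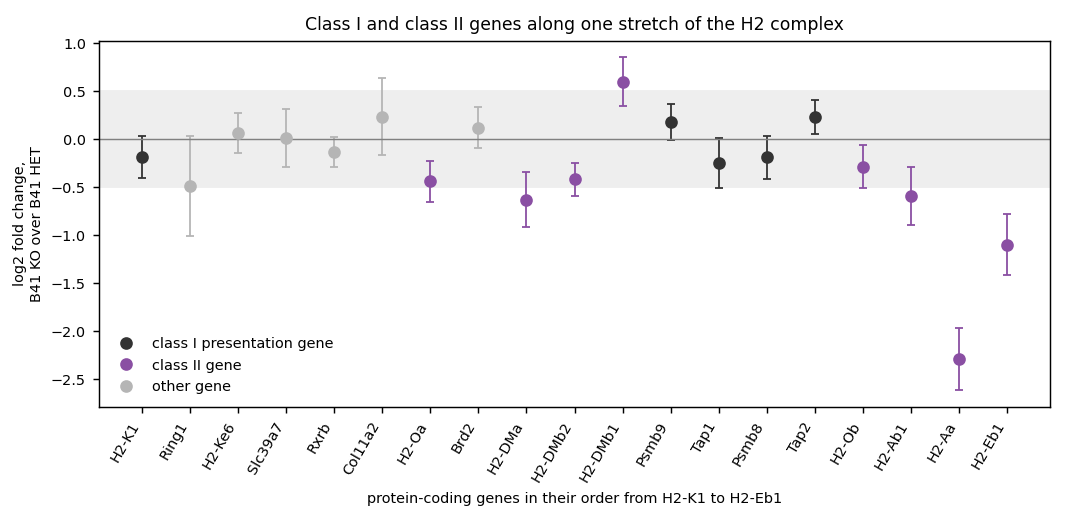
Log2 fold change of B41 KO over B41 HET microglia, with 95% intervals, for 19 protein-coding genes in their order along the H2 complex (brightest probe of each, equal steps on the horizontal axis). The 5 class I presentation genes (black) lie between -0.25 and 0.23, beside class II genes (purple) from -2.29 for H2-Aa to 0.60 for H2-DMb1.

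Class II molecules present peptides from outside the cell to CD4+ T cells and are made by fewer cell types. Of 10 class II genes, 5 were called lower and 1 higher, with a median log2 fold change of -0.52, beside 0 of 10 and -0.13 for class I presentation genes by the same brightest probes. H2-Aa had a log2 fold change of -2.29, Cd74, the invariant chain, of -1.55, and H2-Eb1 of -1.10, while H2-DMa had one of -0.63 (adjusted p = 0.00196, 0.00144, 0.0122 and 0.0376). Ciita, the class II counterpart of Nlrc5, had a log2 fold change of -0.19 on its brighter probe (adjusted p = 0.228) and of -0.99 on its dimmer probe (adjusted p = 0.0454). The difference between the class I and class II lists was not tested. The class II genes are also made by border macrophages and dendritic cells, whose markers are given above. The sort on low CD45 is meant to leave such cells out, and their part was not tested.

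Other heavy chains of the H2 complex were measured for 23 of 26 genes. Of these 0 were called lower and 1, H2-Q1, was called higher, with a median log2 fold change of 0.02. H2-Q1 was well above background on 0 of 3 B41 HET and 2 of 3 B41 KO arrays, so its level in B41 HET is only a bound. Against the dimmest clearly detected signal of each B41 HET array, it was at least 1.32-fold higher in B41 KO samples, by the mean over all 3 of them, 1 of which was itself not clearly detected (measured means 1.54 and 2.84, adjusted p = 0.0225). H2-Q4, a class Ib gene of the Q region and the brightest of the list, had a log2 fold change of 0.20 (adjusted p = 0.174). H2-M3, well above background on every array, passed the threshold on adjusted p but not on fold, with 0.46 (adjusted p = 0.0377). Of the 23 genes 12 had log2 fold changes above 0 and 11 below. On all arrays 14 of the 23 genes, and on none 8, exceeded background clearly. Among class I-like heavy chains outside the complex, 1 of 4 was called lower. This was Hfe, which pairs with B2m and acts in iron uptake, with log2 fold changes of -0.51 on its brighter and -0.89 on its dimmer probe (adjusted p = 0.0401 and 0.00829). Mr1, which presents vitamin metabolites to MAIT cells, had 0.19 on its brightest probe (adjusted p = 0.408) and -0.53 on its dimmer one (adjusted p = 0.0390).

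Of 11 chaperones and peptidases of peptide loading and trimming, 1 was called lower and 0 higher, with a median log2 fold change of -0.02. The called gene was Npepps, a cytosolic aminopeptidase, with -0.69 on its brightest probe (SE 0.08, adjusted p = 0.0110). Its other probes were not called, with -0.48 (adjusted p = 0.0202) and -0.25 (adjusted p = 0.275). Calr, calreticulin, which holds the heavy chain during loading, had one of -0.44 (adjusted p = 0.0358), past the threshold on adjusted p but short of that on fold. Lap3, a leucine aminopeptidase, did the same in the other direction, with 0.45 (adjusted p = 0.0328), and was named after its values were seen. Of 7 measured genes from receptor families that bind class I molecules, 1 was called lower. Lilrb4a, an inhibitory receptor of myeloid cells, had a log2 signal of 8.00 ± 0.21 (SD, n = 3) in B41 HET and 6.03 ± 0.20 (SD, n = 3) in B41 KO samples, a log2 fold change of -1.97 (SE 0.15, adjusted p = 0.00454). Neutrophils carry this receptor as well, and the neutrophil markers given above were lower in the same samples. The sort on low CD45 and on Cx3cr1 is meant to leave neutrophils out, and their part was not tested. Cd8b1, the brightest of the receptor list, had a log2 fold change of -0.15 (adjusted p = 0.430).

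Regulators of class I transcription and interferon receptors were all measured, and 3 of 23 were called lower and 0 higher, with a median log2 fold change of -0.05. The called genes were Rela, the main activating NF-kB subunit (-0.78, adjusted p = 0.0137), Irf1, an interferon-induced activator of class I promoters (-0.63, adjusted p = 0.0349), and Nfya, a subunit of the CCAAT-binding factor that joins Nlrc5 at class I promoters (-0.60, adjusted p = 0.0429). Rela and Irf1 each had a dimmer probe that was not called, with log2 fold changes of 0.39 (adjusted p = 0.0823) and -0.03 (adjusted p = 0.872). Irf8, a lineage factor of microglia, had -0.04 (adjusted p = 0.768), Irf2 had -0.17 (adjusted p = 0.413) and Rfx5, which binds the same promoter module, had -0.28 (adjusted p = 0.142). Ifnar1, a subunit of the type I interferon receptor and the brightest of the list, had 0.20 on its brightest probe (adjusted p = 0.358). The middle one of its 3 probes had -0.34 (adjusted p = 0.0408), short of the threshold on fold, and the dimmest was called lower with -0.53 (adjusted p = 0.0367). Among 16 measured interferon-induced genes outside antigen presentation 0 were called by limma, with 4 at an unadjusted p under 0.05. Their median was -0.13, with 10 below 0 and 6 above, and the brightest, Bst2, had -0.07 (adjusted p = 0.654). Cxcl9 had the largest log2 fold change, -2.03 (adjusted p = 0.0581). It was well above background on 3 of 3 B41 HET and 0 of 3 B41 KO arrays, so its level in B41 KO is only a bound.

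**Figure D4:**
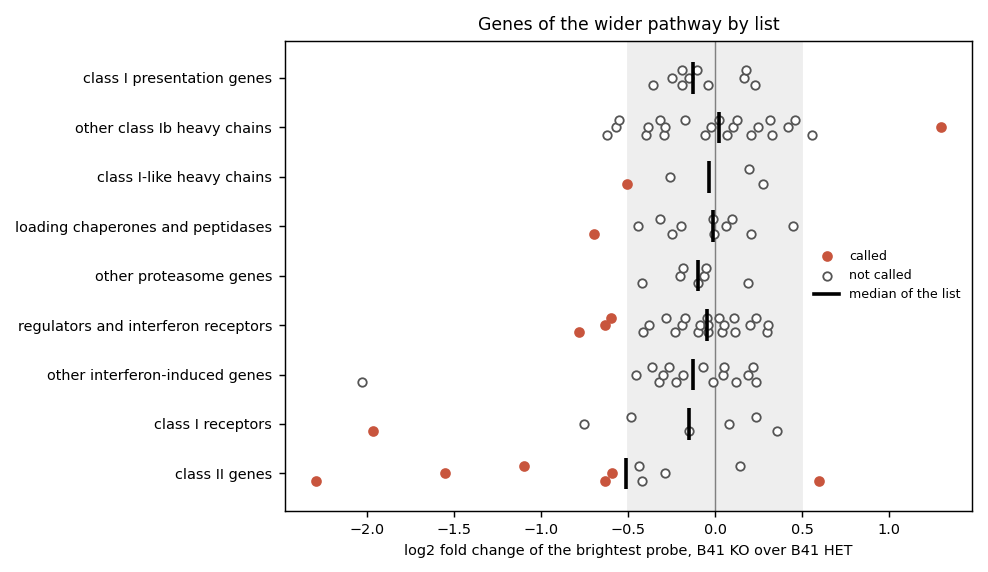
Log2 fold change of B41 KO over B41 HET microglia for the brightest probe of each gene, by list, with called genes in red, other genes open and the median of each list as a black bar. The 10 class I presentation genes lie within the grey band of 0.5 on either side of 0, while class II genes reach -2.29. H2-Q1, at the right, is plotted at its fitted value of 1.30, although its level in B41 HET samples is only a bound.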

How the data were processed

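Total RNA of sorted microglia was labelled with Cy3 and hybridised to SurePrint G3 Mouse GE v2 8x60K arrays, all on 1 slide. The authors deposited 1 scanner file per array, made with Agilent Feature Extraction 11.5.1.1 on a grid built on mm9, whose processed intensity is background-subtracted within the array and not normalized between arrays. They also deposited a table of log2 values with the same quantiles in all 6 samples, read here as quantile-normalized log2 intensity and used as an alternative, since the file does not state its scale.

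Control spots and 95 to 136 outlier-flagged spots per array were left out, log2 processed intensities were quantile normalized, and spots of a probe were averaged. Genotype was tested with limma 3.58.1 in R 4.3.3 on all 6 samples, with Benjamini-Hochberg adjustment over 56601 probes with at least 2 values per genotype. Normalization, test and the thresholds follow the study's methods. The model was tested on simulated data. Probes were named by unversioned accession through a RefSeq gene table on GRCm38.p6, which named 33767 (59.7%) of them, and no probe was placed on the genome, as the builds differ. Coordinates in the text are those of the RefSeq promoter windows on GRCm38.p6. The brightest probe by mean signal stood for a gene. All class I probes are given, and from each wider list up to 4 called genes of largest change, the brightest gene, and genes fixed in the rule (Irf1, Irf2, Irf8, Rfx5, Ciita, Psmb5 and Psmb6, while 1 more is not reported here). Psmb7, H2-M3, Cxcl9, H2-Q10 and the markers named were chosen after their values were seen. The genes and lists were chosen with earlier results of these data known. Alignment used Biopython 1.88, with figures in matplotlib 3.10.9. Protein sequences were not used here. Precision is limited by the number of arrays, 3 per genotype.

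Alternatives were a 75th percentile shift, the authors' table, normexp with an offset of 50 on median intensities, a filter to probes that 3 or more arrays measured well above background, outlier spots kept, trend and robust variance, the replicate number and the slide row as blocks, row 1 of the slide alone, each sample left out, no threshold on fold, and the mean over a gene's probes.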

Additional observations from a re-analysis of the deposited data

How the results depend on the processing

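No class I presentation probe was called in either direction under any of the 15 alternative fits in limma, and without the threshold on fold 0 passed in the reported fit. On adjusted p alone the brighter Tapbp probe passed with normexp, with the filter on dim probes, with outlier spots kept and with trend and robust variance, and Psmb9 with normexp (0.21, adjusted p = 0.0273). The replicate block, the other variance settings and the filter on dim probes leave each fold change as it is by construction and bear on the p-values alone. The slide row block and row 1 alone rest on the same contrast, of the 3 B41 HET arrays with B41 KO replicate 1, since row 2 holds only B41 KO arrays, and in row 1 alone the lone B41 KO array is assumed to vary like the B41 HET arrays. Under both of these, the log2 fold change of the dimmer H2-K1 probe turned to 0.0042 and that of H2-T23 to -0.0040. With 1 sample left out in turn, H2-T23 ranged from -0.0228 (without B41 HET replicate 1) to 0.27 and the dimmer Tap2 probe from -0.27 to 0.0274 (without B41 KO replicate 2). The median over the class I genes was between -0.13 and -0.11 under these fits (-0.12 to -0.11 with 1 sample left out), and -0.026 with the mean over all probes of a gene in place of the brightest.

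The number of calls over all probes varied more. From 2867 it became 1500 with normexp, 444 with the slide row as a block and 792 to 1525 with 1 sample left out. It rose to 3025 with the authors' table, 3204 with trend and robust variance and 3420 with the filter on dim probes. Row 1 alone leaves 1 B41 KO array, so its calls are not counted here. With the replicate number as a block 42 probes were called, 0 of them class I probes. At an unadjusted p under 0.05 in that fit, 3 of the 15 class I probes passed, beside 12658 of 56601 probes in all. The class I median of -0.13 cannot move in this balanced design. Deviations from the genotype means correlated at only 0.03, 0.01 and 0.05 across all probes between samples of the same number. B41 HET replicate 1 correlated about equally with B41 KO replicates 1 (0.0276) and 2 (0.0281), while B41 HET replicates 2 and 3 correlated most with their own number. These small values do not settle whether the numbers are pairs, and they were not taken as pairs. Calls higher were 34.0% of all calls, and 45.8% with the 75th percentile shift. Precision differed between the class I probes, with 95% intervals of the difference from -0.29 to 0.62 for H2-T23 and from -0.21 to 0.12 for H2-D1.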

Other observations

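H2-Q10, a class Ib gene known as secreted by the liver, was chosen after its values were seen. Its 4 probes had mean log2 signals of 14.61, 12.51, 5.84 and 4.21 in B41 HET samples and were well above background on every array. Their log2 fold changes in B41 KO samples were -0.06, 0.12, 0.35 and -0.18, and none was called (adjusted p = 0.698, 0.515, 0.545 and 0.788 in limma). How much each probe reads of related class Ib transcripts was not tested.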
